A study of Mus musculus with 4 samples.

Results

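DNA methylation was described over the Hox genes, the homeobox transcription factor genes that lie in 4 clusters of the mouse genome. The 38 genes were taken by name, of 21631 protein-coding genes of the autosomes and X with a CpG in the data, and each was read from its RefSeq start to its RefSeq end with 1 kb added on each side. They comprised 10 genes of the Hoxa cluster (chr6:52162417-52260880), 10 of Hoxb (chr11:96194316-96368254), 9 of Hoxc (chr15:102921131-103036856) and 9 of Hoxd (chr2:74668225-74765142), on mm10. The clusters from outermost to outermost of these genes held 486 bins of 1 kb, and the 100 kb outside each of the 8 borders held 800 more. All 38 genes and all 38 gene starts passed the minimum of 5 CpGs read in every library and 10 reads per library.

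The study measured cytosine methylation by whole-genome bisulfite sequencing in mouse embryonic stem cells (mESC), and its stated question was how loss of Ogt alters DNA methylation. Ogt encodes O-GlcNAc transferase, the enzyme that puts a single sugar, GlcNAc, on nuclear and cytoplasmic proteins. Both groups carried the Ogt fl/fl genotype, in which Ogt can be cut out by Cre. The 2 Ogt iKO samples had been grown for 6 days with 4-OHT and sorted for YFP, and the 2 control samples had been grown for 6 days without 4-OHT, so drug exposure and the YFP sort cannot be told apart from the knockout. All were grown on mitomycin C-treated fibroblast feeders in LIF with serum replacement, sorted for viability, and separated from feeders with antibodies. Per the labels CD90.2 was the marker kept as mESC and CD326 the one excluded as feeder, the reverse of how these markers are commonly used, and which cells the gate kept was not tested. The labels do not say whether the samples were separate cultures, so the p-values measure only the spread between these 4 samples, which may be technical. Bisulfite treatment does not tell 5-methylcytosine from 5-hydroxymethylcytosine, so a methylation level here is the share of reads with either.

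Hox genes set position along the body axis of the embryo, and within each cluster their order on the chromosome follows the order of their expression from head to tail. Genes in the same place in different clusters are paralogs and share a number. In embryonic stem cells the clusters are largely silent and are a classic target of Polycomb complexes, while their CpG-rich DNA is known to carry little DNA methylation, as part of broad unmethylated regions with methylated DNA outside.

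Totals over the autosomes and X were 63985703 to 79563364 CpG reads per library, a mean depth of 3.36 to 4.05 reads per CpG. Over all bins outside the Hox clusters and flanks the level was 66.4% and 64.1% in Ogt iKO and 71.2% and 74.8% in control. Starts of 7 stem cell marker genes averaged 8.42% and 10.9% in Ogt iKO and 13.5% and 15.7% in control, with 6 of 7 under 10% in mean level and Esrrb at 61.6%. Starts of 7 fibroblast genes averaged 43.0% and 41.2% against 49.1% and 54.9%. Among them Thy1 had a mean level of 8.58% and Col1a2 of 9.07%, and the rest ran from 33.0% (Col1a1) to 80.4% (Postn). Start methylation does not measure expression, and the part of feeder DNA in the results was not tested. Methylation data do not measure Ogt itself, so the knockout was not checked here.

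The 250 bases before the annotated start are printed here for 5 Hox genes that hold a named result and differ in CpG number. They come from RefSeq on GRCm38.p6, the assembly behind mm10, run 5′ to 3′ along the gene's strand, and have each CG in capitals. They lie at chr6:52260881-52261130 (minus strand, Hoxa13), chr6:52164832-52165081 (minus, Hoxa2), chr6:52218574-52218823 (minus, Hoxa7), chr2:74721728-74721977 (plus, Hoxd4) and chr2:74679308-74679557 (plus, Hoxd11).
Hoxa13: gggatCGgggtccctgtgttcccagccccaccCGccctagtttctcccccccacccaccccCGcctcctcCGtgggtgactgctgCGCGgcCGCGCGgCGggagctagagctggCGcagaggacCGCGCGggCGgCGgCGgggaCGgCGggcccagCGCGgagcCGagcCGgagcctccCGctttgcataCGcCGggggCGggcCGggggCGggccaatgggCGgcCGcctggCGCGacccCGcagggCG
Hoxa2: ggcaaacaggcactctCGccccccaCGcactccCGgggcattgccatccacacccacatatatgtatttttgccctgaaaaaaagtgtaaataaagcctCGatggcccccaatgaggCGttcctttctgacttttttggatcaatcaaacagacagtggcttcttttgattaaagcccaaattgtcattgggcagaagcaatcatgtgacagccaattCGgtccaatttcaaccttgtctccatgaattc
Hoxa7: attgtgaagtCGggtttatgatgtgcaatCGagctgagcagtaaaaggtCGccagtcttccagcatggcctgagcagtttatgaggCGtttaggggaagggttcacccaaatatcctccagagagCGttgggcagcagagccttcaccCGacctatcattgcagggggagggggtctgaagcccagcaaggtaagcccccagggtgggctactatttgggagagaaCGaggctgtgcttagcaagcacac
Hoxd4: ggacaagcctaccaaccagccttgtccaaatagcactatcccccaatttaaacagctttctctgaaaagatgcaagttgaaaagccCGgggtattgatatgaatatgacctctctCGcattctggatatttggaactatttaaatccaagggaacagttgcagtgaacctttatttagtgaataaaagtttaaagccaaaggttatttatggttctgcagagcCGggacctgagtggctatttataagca
Hoxd11: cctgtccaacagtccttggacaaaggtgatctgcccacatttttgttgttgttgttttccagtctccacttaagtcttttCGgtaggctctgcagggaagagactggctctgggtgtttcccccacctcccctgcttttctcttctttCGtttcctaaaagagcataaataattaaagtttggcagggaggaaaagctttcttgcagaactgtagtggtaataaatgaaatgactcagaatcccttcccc

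The Hoxa13 sequence holds 35 CG, the most of the 22 Hox genes with an entry in the promoter table. None of its reads was methylated in any library: 0 of 21 and 0 of 32 in Ogt iKO, and 0 of 19 and 0 of 36 in control. The 95% Wilson intervals of these zeros, which cover counting error only, reach up to 15.5%, 10.7%, 16.8% and 9.64%. Only 10 of the 35 sites were read in all 4 libraries. In the Hoxa2 sequence, with 6 CG, no read was methylated in 3 libraries (4 to 6 reads each) and 7.14% of 14 reads were in control replicate 2.

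The Hoxa7 sequence, with 7 CG, stood at 31.4% in both Ogt iKO libraries (35 reads each), 37.0% of 27 reads in control 1 and 48.4% of 31 reads in control 2. The 95% Wilson intervals, which cover counting error only, ran from 18.6 to 48.0%, 18.6 to 48.0%, 21.5 to 55.8% and 32.0 to 65.2%, so the intervals overlapped, while both Ogt iKO values lay below both control values. In the Hoxd4 sequence 2 of its 3 CG were read in all libraries, and its levels were 60% and 62.5% in Ogt iKO and 60% and 83.3% in control, from 5 to 12 reads. The Hoxd11 sequence has 2 CG, the fewest, and no methylated read among 8, 9, 12 and 3 reads. The 95% Wilson intervals of these zeros reach up to 32.4%, 29.9%, 24.2% and 56.1%, so little can be said of its level at this depth.

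Over the 22 promoters the median was 12 CG in 250 bases, against 6 over all 27025 promoters of the table, and 17 of the 22 were above that median. Of the 304 CpGs listed in these windows 303 fell on a CG of the printed strand.

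The Hox genes were lowly methylated in both groups. The mean over the 38 genes was 15.4% and 15.3% in Ogt iKO and 15.1% and 14.2% in control, that is 15.4 ± 0.069% against 14.7 ± 0.646% (SD, n = 2). Over all 21248 genes tested the same means were 55.4 ± 1.36% and 62.8 ± 2.10%. Gene levels averaged over the 4 libraries ran from 3.25% to 36.2% among the Hox genes, with a median of 13.9%. The plot of gene levels by cluster gives every library.

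**Figure D1:**
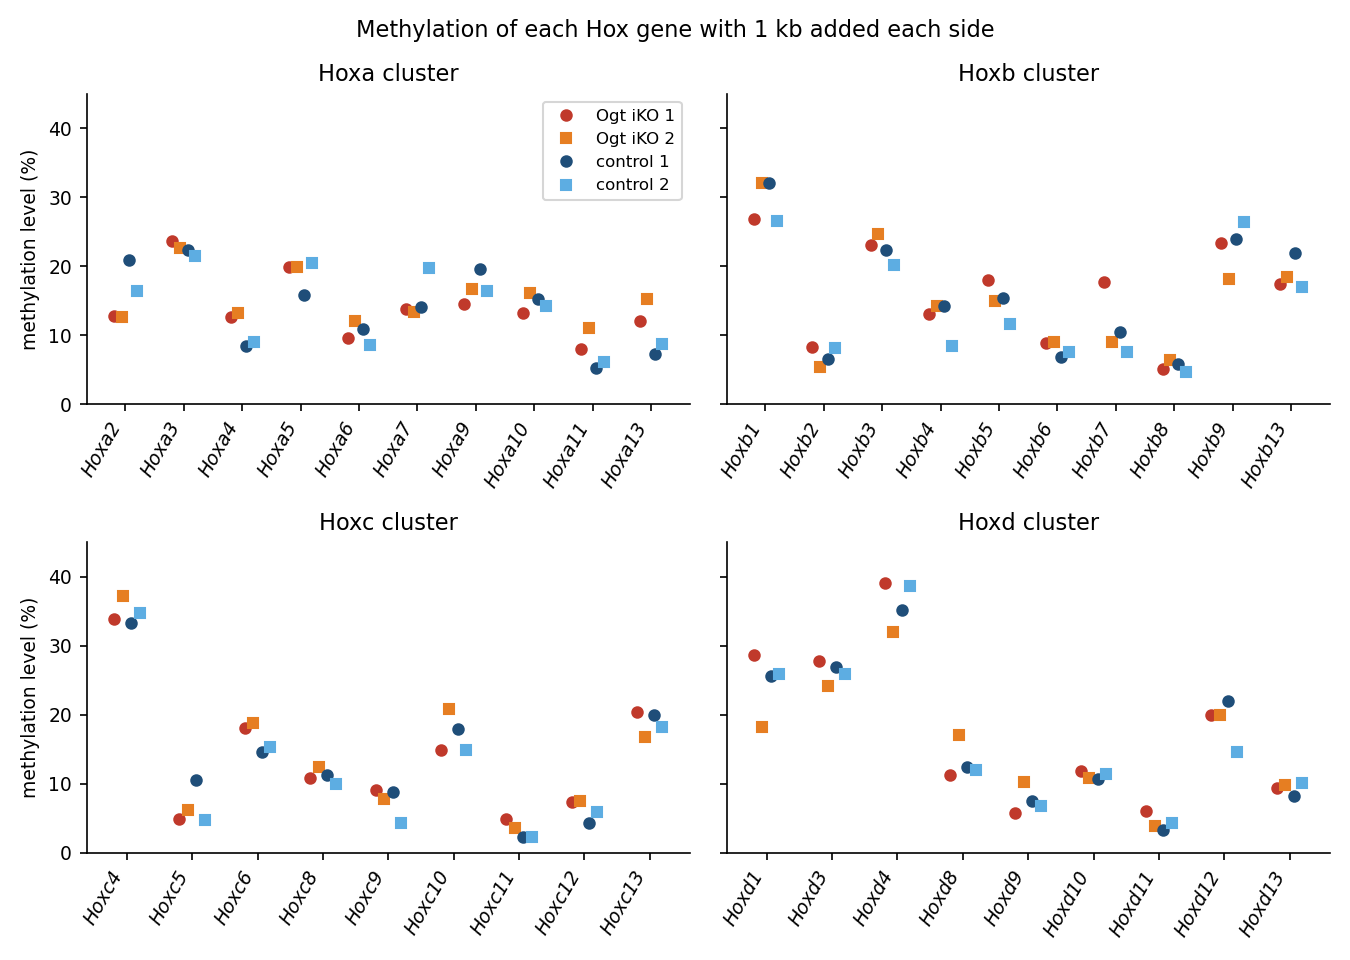
Methylation level (percent of CpG reads) of each of the 38 Hox genes with 1 kb added on each side, by cluster and paralog number, with 1 point per library (red and orange, Ogt iKO; dark and light blue, control). Levels ran from 2.30% (Hoxc11, control 1) to 39.1% (Hoxd4, Ogt iKO 1), and the points of both groups lie close together in most genes.

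By paralog group, the 11 genes numbered 1 to 4, which pattern the hindbrain and neck, averaged 22 ± 0.808% in control and 22.1 ± 0.873% in Ogt iKO. The 11 genes numbered 5 to 8, of the neck and trunk, averaged 11.4 ± 0.370% and 12.6 ± 0.0738%. The 16 genes numbered 9 to 13, of the trunk, limbs and tail, averaged 11.9 ± 0.725% and 12.6 ± 0.386%. The first set was thus higher than the others by about 10 points in each group. The other sets differed from each other by less than 1 point. These sets share bases, as the Hoxa3 window holds those of Hoxa5 and Hoxa6, and they were not matched on CpG density.

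The highest control levels belonged to Hoxd4, Hoxc4 and Hoxb1. Hoxd4, which helps pattern the neck vertebrae (gene at chr2:74721978-74729160), stood at 39.1% and 32.0% in Ogt iKO and 35.2% and 38.7% in control. Hoxc4 (chr15:103018097-103036856) stood at 33.9% and 37.2% in Ogt iKO and 33.3% and 34.8% in control. Hoxb1, which gives a hindbrain segment its identity (chr11:96365746-96368254), stood at 26.8% and 32.0% against 32.1% and 26.5%. In each of these 3 genes the groups overlapped.

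The lowest control levels belonged to Hoxc11, Hoxd11 and Hoxc12. Hoxc11 (chr15:102954526-102956701) stood at 4.87% and 3.52% in Ogt iKO and 2.30% and 2.33% in control. Hoxd11, which together with its paralog Hoxa11 builds the forearm and kidney (chr2:74679558-74687016), stood at 6.02% and 3.91% against 3.30% and 4.37%. Hoxc12 (chr15:102936826-102938609) stood at 7.30% and 7.52% against 4.24% and 5.85%. Ogt iKO was above control in both libraries of Hoxc11 and Hoxc12, and the groups overlapped in Hoxd11.

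No Hox gene was called as different between Ogt iKO and control. A quasi-binomial model of methylated and total reads, fitted over all genes with Benjamini-Hochberg adjustment and a call at adjusted p under 0.05 with at least 10 points of difference, called 0 of 38 Hox genes. It called 2538 of 21248 genes (11.9%), of which 2536 were lower in Ogt iKO. A decrease of 10 points was out of reach for genes with a control level under 10%, such as Hoxc11, Hoxd11 and Hoxc12. None of the Hox genes had an unadjusted p under 0.05, against 48.9% of all genes, and their lowest adjusted p was 0.197 (Hoxa13). edgeR's quasi-likelihood test called 0 Hox genes too, and 3648 of all genes; at an unadjusted p under 0.05 it had 3 Hox genes, against 12058 of the 21248 genes. Limma on logit levels called none of the 21248 genes, and had 6 Hox genes at an unadjusted p under 0.05, against 9419 of all genes. A p that misses the threshold does not show that levels were equal.

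The size and direction of the difference are therefore given as a description. The mean over the 38 Hox genes was 0.703 points higher in Ogt iKO, with a pooled SD over libraries of 0.460, and the median over genes was 1.11 points higher. The mean difference became 0.0962 points where each CpG needed 3 reads in every library. Of the 38 genes, 26 were higher and 12 lower in Ogt iKO; of all genes, 95.2% were lower, with a median difference of -7.60 points. Both Ogt iKO libraries were above both controls in 9 Hox genes (background 0.965% of all genes) and below both in 3 (background 77.9%). The 9 include Hoxa3 and Hoxa4, whose windows share bases. All genes were mostly lower in Ogt iKO, so this background is not the share to be seen without a difference. The same holds for the starts and bins below. The design of 2 against 2 libraries cannot give an exact permutation p below 0.333, and no p is given for these averages.

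Since the Hox genes had low levels, they were set beside 2407 other genes whose mean level lay between 3.26% and 36.2%, the range of the Hox genes. These genes share the range and not the distribution: their median mean level was 24.8%, against 13.9% for the Hox genes. Their mean was 21.0 ± 0.453% in Ogt iKO and 25.1 ± 0.486% in control, with a median difference of -3.89 points. Of these genes 84.1% were lower in Ogt iKO, 51.9% had both Ogt iKO libraries below both controls and 4.03% had them above. Calls were made for 5.03% of them. The Hox genes' differences, from -5.94 to 5.64 points, had a median of 1.11.

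The largest decreases were in Hoxa2, Hoxb9 and Hoxa7, none of which passed the test. Hoxa2, which patterns the hindbrain and a pharyngeal arch (chr6:52162417-52164831), stood at 12.8% and 12.6% in Ogt iKO and 20.9% and 16.4% in control, a difference of -5.94 points with an adjusted p of 0.244 in the quasi-binomial model. With 5 kb added on each side in place of 1 kb its difference was 1.69 points, and without control 1 it was -3.70. Hoxb9, a trunk gene (chr11:96271330-96276595), stood at 23.4% and 18.1% against 23.9% and 26.5%, a difference of -4.42 points that was -1.77 without Ogt iKO replicate 2, -7.07 without replicate 1, -11.5 where each CpG needed 3 reads and -7.63 with no margin. Hoxa7 (chr6:52215623-52218573) stood at 13.9% and 13.3% against 14.1% and 19.8%, so control 2 set most of its difference of -3.33 points. Without control 2 it was -0.467, and without control 1 -6.20. Over their 16 alternatives the differences lay between -8.19 and 1.69 points in Hoxa2, -11.5 and -1.77 in Hoxb9, and -6.20 and 0.378 in Hoxa7.

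The largest increases were in Hoxa13, Hoxb7 and Hoxa4, which did not pass the test either. Hoxa13, needed for the digits and the genital tract (chr6:52258853-52260880), stood at 12% and 15.3% in Ogt iKO and 7.32% and 8.70% in control, a difference of 5.64 points. Its promoter, printed above, held no methylated read, so the methylated reads lay elsewhere in the window. Hoxa4 (chr6:52189682-52191703) stood at 12.6% and 13.1% against 8.41% and 8.96%, and its difference was -2.35 where each CpG needed 3 reads. Hoxb7 (chr11:96285604-96290163) stood at 17.7% and 9.03% against 10.5% and 7.63%. Its difference of 4.28 points rested on Ogt iKO replicate 1 and was -0.0395 without it, but 11.98 where each CpG needed 3 reads (adjusted p = 0.0763 in the quasi-binomial model). Over their 16 alternatives the differences lay between 3.94 and 7.29 points in Hoxa13, -0.0395 and 11.98 in Hoxb7, and -2.35 and 4.48 in Hoxa4.

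The other 26 Hox genes lay between 4.30% and 28.7% in single libraries, and their differences ranged from -2.37 to 3.80 points. By cluster, the mean difference over genes was 0.594 points in Hoxa, 0.805 in Hoxb, 1.20 in Hoxc and 0.214 in Hoxd, with pooled SDs of 0.628, 1.18, 0.794 and 0.767. Ogt iKO lay above control in both libraries of the Hoxc mean, and the groups overlapped in the other clusters. Neighbouring windows are not independent: 13 pairs of Hox windows shared bases, among them Hoxd3 with Hoxd4 and Hoxc4 with Hoxc5.

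Gene starts were read from 1000 bases before to 500 bases after the start. The start was taken from the promoter table for 22 genes, and for the other 16 the window was put at the end of the gene with more CpGs. Since the table has its 3 Hoxb entries and its 1 Hoxc entry on the plus strand, 4 of these windows (Hoxb2, Hoxb3, Hoxb6 and Hoxc6) lie at what should be the far end of the gene. Placed instead by the strand of their cluster, an alternative added after seeing the data, they changed some of the values below, which are then given both ways. Of the 38 Hox starts, 28 (73.7%) had a mean level of at most 10%, against 43.9% of all starts. With the 4 windows placed by strand it was 29 (76.3%). The mean over Hox starts was 10.9 ± 1.21% in Ogt iKO and 9.86 ± 0.493% in control, and by strand 10.5 ± 1.22% and 10.04 ± 0.304%.

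With a mean level over 15% there were 6 windows: the starts of Hoxd4, Hoxa7, Hoxb1 and Hoxa9, and the far ends of Hoxb3 and Hoxb6. By strand there were also 6, with Hoxb2 in place of Hoxb6. At the Hoxd4 start, with 12 CpGs read in all libraries and 43 to 55 reads per library, the levels were 78.2% and 59.1% in Ogt iKO and 67.4% and 83.7% in control. At the Hoxa7 start they were 31.2% and 37.2% against 34.0% and 53.8%. At the far end of Hoxb3 they were 49.6% and 46.9% against 32.6% and 41.9%, and at its start by strand 50% and 60.5% against 65% and 38.6%. The start of Hoxb2 by strand stood at 29.4% and 15.7% against 27.9% and 16.3%, and that of Hoxb6 at 5.56% and 2.50% against 6.35% and 2.27%. The groups overlapped at Hoxd4 and Hoxa7 and at these 3 starts placed by strand, and at the far end of Hoxb3 both Ogt iKO libraries were higher.

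**Figure D2:**
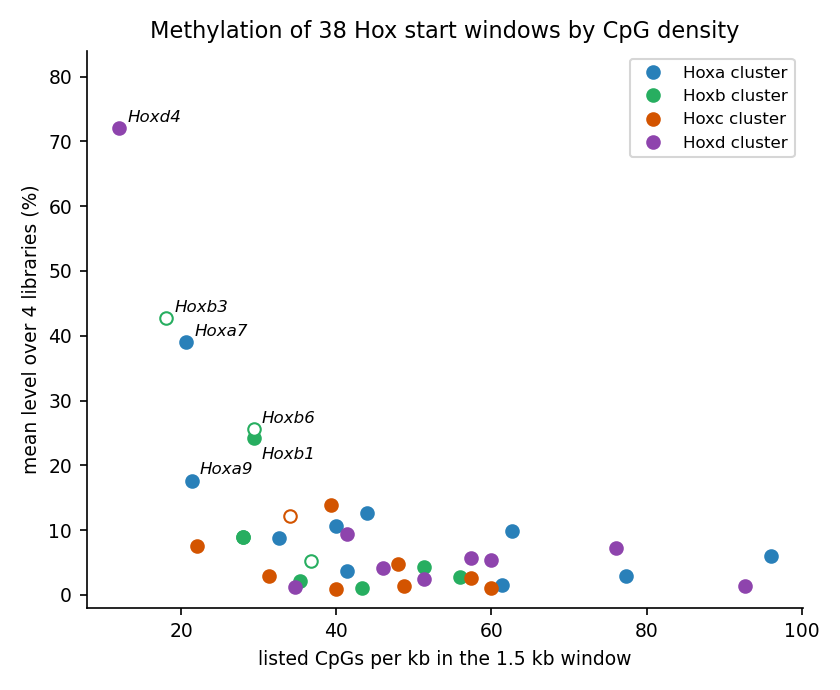
Mean methylation level over the 4 libraries (percent) of the 38 Hox start windows against their number of listed CpGs per kb, coloured by cluster, with the 6 windows above 15% named; open circles are the 4 windows that lie at the far end of their gene. The Hoxd4 start has 12 CpGs per kb and a level of 72.1%, while windows with over 50 CpGs per kb lie at or below 10%.

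Across the 38 windows Spearman's rho between CpG density and mean level was -0.538 (-0.454 by strand), and across all 19671 starts it was -0.817; points of a rho share libraries and neighbouring windows, and no p is given. The Hox starts had a median of 41.3 CpGs per kb, against 37.3 over all starts.

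No Hox start was called either, against 31 of 19671 starts (0.158%) in the quasi-binomial model. Neither edgeR nor limma on logit levels called any start. Of the Hox starts, 28 (29 by strand) had a mean level of at most 10%, which leaves little room for a decrease of 10 points. At an unadjusted p under 0.05 there were 5 of 38 Hox starts, against 11.6% of all starts. They were Hoxa3, Hoxa11, Hoxd11 and the far end of Hoxc6, with higher levels in Ogt iKO, and Hoxb4, with lower ones, and their adjusted p was 0.37 or more. By strand there were 4, without Hoxc6. The far end of Hoxc6 stood at 15.4% and 16.8% against 7.69% and 8.75%, and its start by strand at 3.27% and 1.47% against 1.504% and 1.02%, where the groups overlapped. Hoxa3 stood at 14.7% and 13.4% against 10.3% and 4.14%. Hoxb4 stood at 5.41% and 5.71% against 13.6% and 10.7%. Of the Hox starts 24 were higher and 14 lower in Ogt iKO, and of all starts 71.7% were lower. Both Ogt iKO libraries were above both controls at 11 Hox starts (background 6.62%) and below both at 5 (background 34.3%). By strand these were 8 and 5, and 23 were higher and 15 lower.

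Whole clusters were then compared with the DNA around them. Inside the 4 clusters the level was 21.8% and 20.9% in Ogt iKO and 21.4% and 20.3% in control, which is 21.3 ± 0.661% against 20.9 ± 0.797%. In the flanks it was 52.1% and 51.6% against 56.6% and 59.3%, which is 51.9 ± 0.376% against 57.9 ± 1.90%. The groups thus overlapped inside and were apart outside, where Ogt iKO minus control was -6.07 points. In the rest of the autosomes and X it was -7.77 points.

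The step from flank to cluster within a library was 30.3 and 30.7 points in Ogt iKO and 35.2 and 39 points in control. It was thus smaller in Ogt iKO, with a difference of -6.54 points and a pooled SD of 1.92, and no p is given. Each cluster had the smaller step in Ogt iKO, with differences of -6.59 points in Hoxa, -6.94 in Hoxb, -7.46 in Hoxc and -4.96 in Hoxd. Within the clusters, bins in the 38 genes stood at 17.3 ± 0.236% in Ogt iKO and 16.3 ± 0.905% in control. The stretch between Hoxb13 and Hoxb9, 72 bins with none of the 38 genes, stood at 41.8 ± 2.45% and 46.1 ± 2.38%. That stretch, singled out after its values were seen, was lower in both Ogt iKO libraries, as the flanks were.

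**Figure D3:**
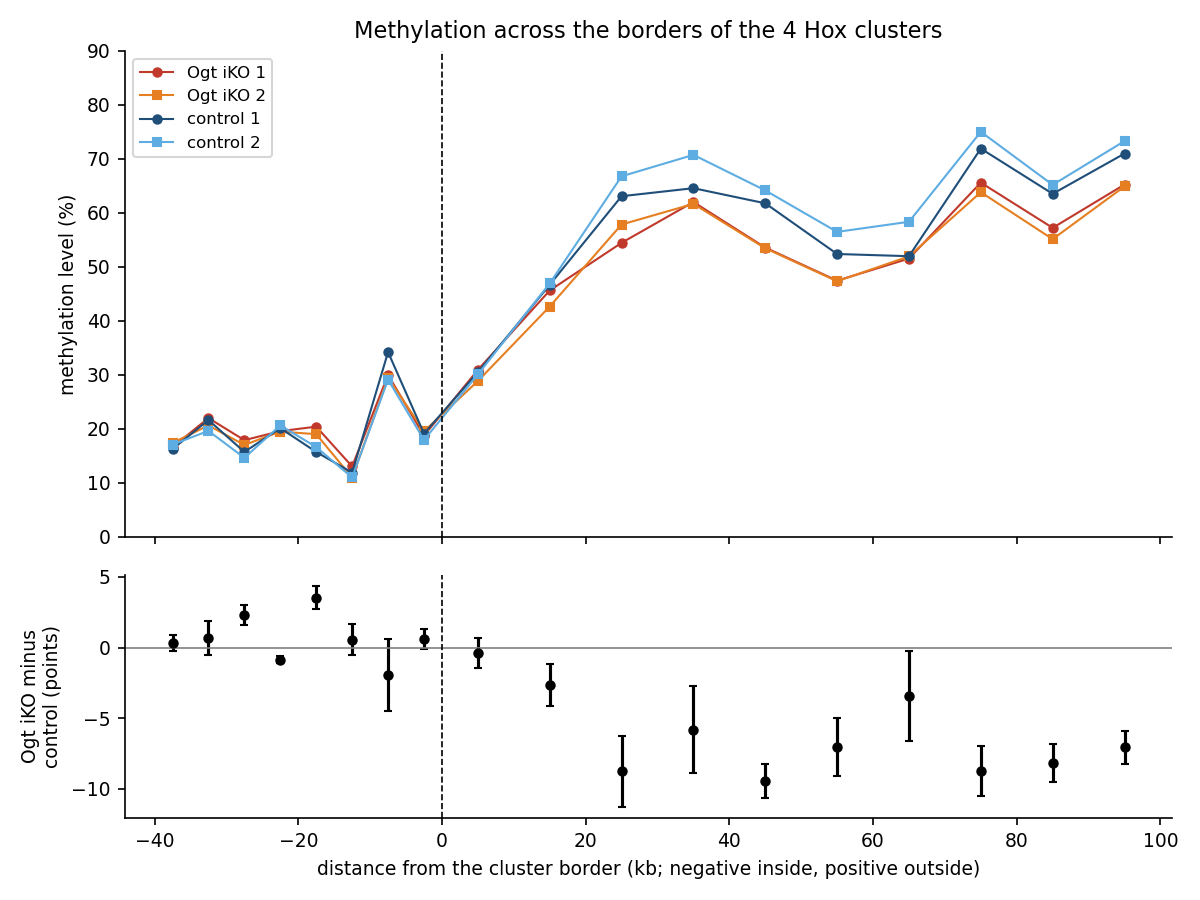
Top, methylation level (percent) of each library in steps of 5 kb inside (negative) and 10 kb outside (positive) the cluster borders. Reads were pooled over the 8 borders, and the inside steps left out the stretch between Hoxb13 and Hoxb9 (-4.38 points). Bottom, Ogt iKO minus control in points, with the pooled SD over libraries (n = 2 per group) as error bar; from 20 kb outward the difference is between -9.45 and -3.42, and inside it is between -1.94 and 3.54.

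The difference was near 0 next to the border and larger from 20 kb outward, with no further growth beyond. In the first 10 kb outside, levels were 30.9% and 28.9% in Ogt iKO and 30.5% and 30.1% in control, a difference of -0.395 points with overlapping groups. From 10 to 20 kb they were 45.6% and 42.7% against 46.7% and 46.9%, a difference of -2.67 points (-1.18 without Ogt iKO replicate 2, -4.15 without replicate 1). From 20 to 50 kb they were 56.4% and 57.4% against 63.1% and 66.9%, or -8.09 points, and from 50 to 100 kb 56.9% and 56.1% against 61.9% and 65.3%, or -7.08 points. With bins of fewer than 20 CpGs alone, the differences of the innermost steps were -2.12 and -6.09.

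Single borders varied. Within 10 kb both Ogt iKO libraries were lower at 2 of the 8 borders: outside Hoxd1, at 70.3% and 65.2% against 72.2% and 78.4%, and outside Hoxb13, at 24.5% and 21.3% against 28.0% and 28.4%. From 10 to 20 kb they were lower at 4 of 8 borders and higher at 1, outside Hoxb13 (35.7% and 37.3% against 35.2% and 30.9%), with differences from -12.6 to 3.46 points. From 20 to 50 kb they were lower at 8 of 8 borders, with differences from -9.65 to -4.66 points. From 50 to 100 kb they were lower at 7 of 8, the exception being the side of Hoxa13, at 55.3% and 52.7% against 53.5% and 58.2%. Both Ogt iKO libraries were also lower in the pooled rest of the autosomes and X (-7.77 points), and in 41.4% of all single 1 kb bins. The share among windows of like size elsewhere was not computed, so these counts are not shown to be particular to Hox borders.

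The place where methylation begins was read as the first 1 kb bin outward at 50% or more. It lay 0.246 kb from the last base of the cluster at the Hoxb1 side and 0.358 kb at the Hoxd1 side in all 4 libraries. At the Hoxa2 side it lay at 6.92 kb in both Ogt iKO libraries and 0.916 kb in both controls. Over the 8 borders the mean was 3.87 kb in Ogt iKO and 3.43 kb in control, with 3 borders nearer in Ogt iKO, 2 farther and 3 equal. For the first of 3 such bins in a row the means were 6.74 kb and 9.43 kb, with 5 nearer and 3 equal. The direction thus differed between the readings, and at a level of 60% the sign of each reading turned, to -0.25 kb for a single bin and 6.125 kb for 3 bins.

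CpG number separated the bins inside the clusters. Of the inside bins with a CpG, 19.2% held 40 or more, against 2.63% in the flanks and 0.819% in the rest. Inside bins with 40 or more CpGs stood at 4.67 ± 0.120% in Ogt iKO and 4.27 ± 0.807% in control. Those with 20 to 39 stood at 17.3 ± 0.0861% and 16.2 ± 0.549%, those with 10 to 19 at 43.6 ± 0.622% and 44.6 ± 0.233%, and those with 1 to 9 at 49.3 ± 2.87% and 52.7 ± 1.31%. Bins with more CpGs thus had lower levels in both groups.

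**Figure D4:**
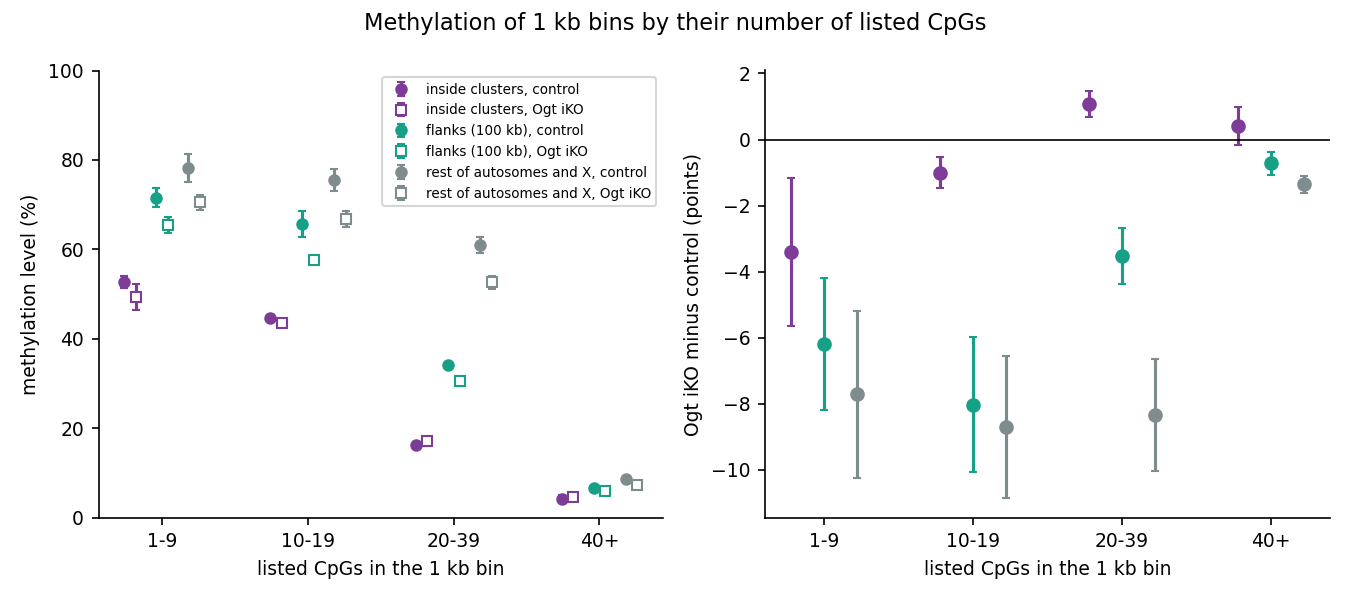
Left, methylation level (percent) of 1 kb bins by their number of listed CpGs, as mean and SD over 2 libraries, for control (filled circles) and Ogt iKO (open squares) inside the clusters, in the flanks and in the rest of the autosomes and X. Right, Ogt iKO minus control in points with the pooled SD; for bins of 20 to 39 CpGs the difference is 1.08 inside, -3.53 in the flanks and -8.34 in the rest.

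Bins of like CpG number differed by region. At 20 to 39 CpGs the difference was 1.08 points inside the clusters (17.3% and 17.2% in Ogt iKO against 16.6% and 15.8%), -3.53 points in the flanks (31.4% and 29.7% against 33.8% and 34.3%) and -8.34 points in the rest. At 10 to 19 CpGs the differences were -1.01, -8.03 and -8.70 points. At 1 to 9 CpGs they were -3.41, -6.19 and -7.71 points, the first being -1.38 without Ogt iKO replicate 2 and -5.43 without replicate 1, and at 40 or more 0.402, -0.722 and -1.35. Levels differ between the regions within each class, so the classes do not match the bins on level.

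Bins were therefore also grouped by their mean level over the 4 libraries, a grouping added after the data were seen. Of 424 inside bins with enough reads, 33.3% lay at 0 to 10%, against 1.91% of 1395311 bins in the rest, and 8.25% lay at 70 to 100%, against 69.8%. The 141 inside bins at 0 to 10% stood at 4.19% and 4.23% in Ogt iKO and 4.11% and 3.18% in control, a difference of 0.564 points, against -0.686 in the rest. In the 122 of them in Hox genes it was 0.549 points with overlapping groups. Among bins at 10 to 30% the inside stood at 20.2% and 18.4% in Ogt iKO and 17.9% and 17.4% in control, a difference of 1.65 points. It was -0.576 points with overlapping groups in the flanks and -5.66 points in the rest. Among bins at 30 to 50% the inside stood at 39.7% and 41.7% against 40.8% and 39.8%, a difference of 0.415 points with overlapping groups. For bins of that level it was -6.82 points in the flanks and -11.1 points in the rest.

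**Figure D5:**
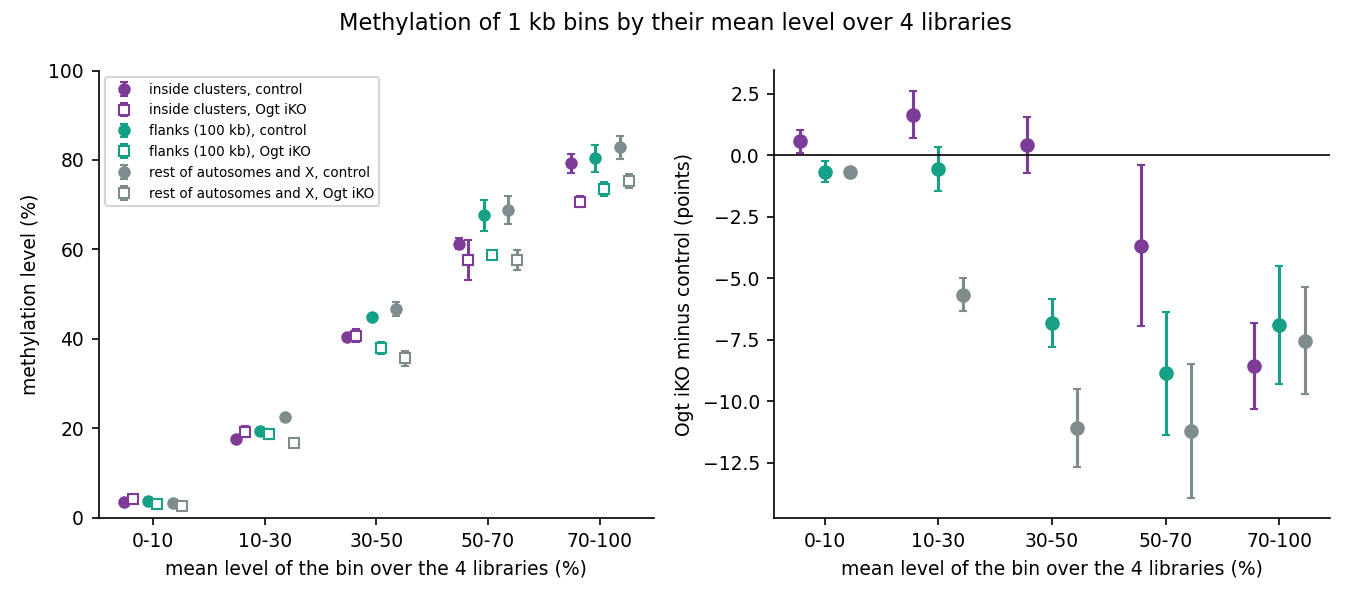
Left, methylation level (percent) of 1 kb bins grouped by their mean level over the 4 libraries, as mean and SD over 2 libraries, for control (filled circles) and Ogt iKO (open squares) in each region. Right, Ogt iKO minus control in points with the pooled SD; at 30 to 50% the difference is 0.415 inside the clusters and -11.1 in the rest, and at 70 to 100% it is -8.57 and -7.53.

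At 70 to 100%, unlike at 50 to 70%, both Ogt iKO libraries were lower inside the clusters. Inside bins at 50 to 70% stood at 60.7% and 54.4% in Ogt iKO and 60.4% and 62.1% in control, a difference of -3.68 points with a pooled SD of 3.27, against -11.2 in the rest. The 35 inside bins at 70 to 100% stood at 71.6% and 69.9% against 77.8% and 80.8%, a difference of -8.57 points, against -7.53 in the rest. Of these 35 bins only 8 lay in Hox genes, and these stood at 69.6% and 73.7% against 74.8% and 78.2%, a difference of -4.88 points with a pooled SD of 2.66, with 5 of the 8 bins lower.

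Limiting each class of CpG number to bins with a mean level of 30 to 70% left 56, 59 and 22 inside bins. These held 1 to 9, 10 to 19 and 20 to 39 CpGs. Their differences were -2.71, -1.52 and 0.717 points with overlapping groups, against -10.3, -11.5 and -11.8 points in the rest. The mean control levels of these classes were 51.99%, 52.01% and 40.51% inside, against 66.7%, 64.2% and 59.99% in the rest. The bins thus shared a range of levels and were not matched on level within it.

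Single bins were tested over the whole genome, where 12076 of 1396320 were called (0.865%). That count was 3 with a dispersion prior from all features, 0 by limma on logit levels and 0 to 1 with 1 library left out. Among 424 tested bins inside the clusters 1 was called, and none of the 288 in Hox genes was. Of those 288, 26 had an unadjusted p under 0.05, 17 of them higher in Ogt iKO and 9 lower. A mean level under 10% was held by 42.4% of the 288, which leaves little room for a decrease of 10 points. In the flanks 3 of 585 were called, and 81 had an unadjusted p under 0.05, 80 of them lower in Ogt iKO. Over all bins 14.7% had such a p. Ogt iKO was lower in 51.7% of the tested inside bins, 72.3% of the flank bins and 80.0% of all bins. Both Ogt iKO libraries were below both controls in 17.7% of the tested inside bins and 35.9% of the flank bins, against 41.4% of all bins. They were above both in 18.4% of the inside and 5.64% of the flank bins, against 4.04% of all bins.

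The called bin inside a cluster was chr11:96248001-96249000, between Hoxb13 and Hoxb9. It stood at 38.9% of 18 reads and 46.8% of 47 reads in Ogt iKO and 93.1% of 29 reads and 93.3% of 15 reads in control, over 9 CpGs, a difference of -50.4 points with an adjusted p of 0.00717. The flank bins were chr11:96451001-96452000 (55.2% and 60% against 85.7% and 97.7%), chr11:96138001-96139000 (52.9% and 50.0% against 77.9% and 77.9%) and chr2:74617001-74618000 (53.5% and 47.8% against 82.5% and 80.8%). Their adjusted p were 0.0274, 0.028 and 0.0453 in the quasi-binomial model. With 1 library left out, by limma and with the prior from all features none of the 4 was called, in fits that called at most 3 bins in the genome. With the replicate number as a block the 3 flank bins lost their calls, with adjusted p of 0.0716, 0.0513 and 0.0977, and the second of them also lost it with no read minimum (0.0536). With 1 library left out the difference of the bin inside the Hoxb cluster lay between -54.3 and -46.4 points.

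One bin in Hoxc9 (chr15:102981001-102982000) had an adjusted p of 0.0335 but a difference of -4.50 points, under the size threshold (0.876% of all bins had such an adjusted p at any size). It stood at 0 of 159 and 0 of 111 reads in Ogt iKO. With an approximate bound of 3 divided by the reads, these zeros allow up to 1.89% and 2.70%. Control 1 stood at 8.04% and control 2 at 0.962%, so a single control library set the difference.

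Genes that work with or upstream of the Hox genes were read in the same way. Of 15 Polycomb genes, whose products keep Hox genes silent, 6 were called lower. Among them were Cbx7 (33.8% and 31.1% against 47.7% and 43.3%) and Rnf2 (53.5% and 49.5% against 59.2% and 68.1%). None of the 15 was called higher, though 3 were higher in mean. Both Ogt iKO libraries were below both controls in 12, and the median difference was -8.44 points. Of 6 trithorax genes, whose products oppose Polycomb, 2 were called lower. They were Ash2l (46.4% and 44.1% against 57.1% and 61.5%) and Kmt2b (58.4% and 50.6% against 66.5% and 69.0%). All 6 were lower in mean, 5 of them with both Ogt iKO libraries below both controls, and the median difference was -8.97 points. Of 9 genes for Hox cofactors of the Pbx, Meis and Pknox families, 2 were called: Pbx4 fell by 12.1 points and Pknox1 fell by 10.6 points. All 9 were lower in mean, 8 of them with both Ogt iKO libraries below both controls, and the median difference was -7.11 points. Beside these, 11.9% of all genes were called lower, and 77.9% had both Ogt iKO libraries below both controls. Their median was -7.60 points, so the 3 lists had medians near that of all genes.

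Related homeobox genes were read as well. None of the 10 (Evx1, Evx2, Cdx2, Cdx4, Gsx1, Gsx2, Pdx1, Mnx1, Meox1 and Meox2) was called, none had an unadjusted p under 0.05 (48.9% of all genes did), and 5 were lower and 5 higher in Ogt iKO. Their median difference was -0.653 points, with Cdx4 at -8.54 (overlapping groups), Meox1 at -5.32 and Meox2 at -4.22. Both Ogt iKO libraries were below both controls in 3 of the 10 and above both in 0, where the shares over all genes were 77.9% and 0.965%. The mean of the list was 25.3 ± 1.86% in Ogt iKO and 26.9 ± 0.0783% in control. Its difference from the other lists was not tested. Evx1, which adjoins the Hoxa cluster, stood at 11.5% and 12.7% against 8.89% and 11.7%, and Evx2, beside the Hoxd cluster, at 14.8% and 17.4% against 14.9% and 16.8%. The groups overlapped in both.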

How the data were processed

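Genomic DNA of 2 Ogt iKO and 2 control samples was measured by whole-genome bisulfite sequencing. The deposited files, 1 per sample, list per CpG the count of methylated reads and the count of all reads (C and T), and an expected count, which per the file headers is the depth corrected for C/T variants with the opposite strand; the corrected depth was rounded and used only as an alternative. Per the submitters' processing notes BSMAP, Picard and mm10 were used; their roles, versions and filters are not given in the sources used here. The files held 0 per-sample columns without a sample.

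CpGs that had 1 or more reads in every library were summed, over the autosomes and X, for each gene with 1 kb added on each side, each start window (1000 before to 500 after the start) and each 1 kb bin. Features needed 5 CpGs and 10 reads per library. Methylated and total reads were fitted with a quasi-binomial model (group only), the dispersion moderated with limma 3.58.1 in R 4.3.3 and kept at 1 or more, with an F test and Benjamini-Hochberg adjustment over all features. A call needed an adjusted p under 0.05 and 10 points. The dispersion prior was taken from features with at least 1 expected read of the rarer kind in the shallowest library, a choice made after a test on simulated data. On those data, with changed features among 21248 genes, 68% of changes of 15 points and 85% of 25 points were called, with 5 false calls. Among 19671 starts it was 15% and 67%, with 5 false, and among 200000 bins 5% and 46%, with 1 false. The changed features were drawn only from those at middle to high levels and with far more reads in every library than the minimum. The rates therefore do not give the chance of a call at low levels, such as those of most Hox genes and starts, or in bins with few reads. Levels of regions are pooled reads per library, means are over libraries, and the pooled SD is that of the libraries within groups.

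The alternatives were other read minimums, corrected depth, deep CpGs left out, thinned reads, limma on logit levels, edgeR 4.0.16, other windows, bins and thresholds, each library left out, and the replicate number as a block. Genes named are the 3 with the highest and the 3 with the lowest control level and the 3 largest decreases and increases, with called bins; sequences are of genes with a named result. The start was taken from the promoter table or, without an entry, put at the CpG-denser gene end; the end given by the cluster's strand was an alternative added after seeing the data. Starts and borders named beyond that rule were picked with their values in view. The Hox genes and the comparison lists were chosen with earlier results of these data known. Tables were made with Python 3.11.15, numpy 2.4.6 and pandas 2.3.3. Promoters and gene coordinates are from RefSeq on GRCm38.p6.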

Additional observations from a re-analysis of the deposited data

How the results depend on the processing

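No Hox gene was called under any of 19 alternatives and no Hox start under any of 19 (only 19 starts had enough CpGs with 3 reads each, and only 17 in the promoter table's window), but several of these call few features anywhere: they called between 0 and 7700 of all genes and between 0 and 110 of all starts. For calls, those added after seeing the data were the dispersion prior from all features and, for starts, the end given by the cluster's strand. That prior was applied to genes, starts and bins. In and around the clusters 4 of 1009 bins were called. The count was 0 by limma on logit levels, 10 of 634 with 2 kb bins (22767 over the genome) and 0 with that prior. With 3 reads per CpG it was 1 of 317 (1836 of 229743 over the genome), a bin other than the 4, of which 1 was tested there and not called (adjusted p = 0.255); with 1 library left out the lowest and highest were 0 and 0, in fits where the lone library of a group borrows its spread from the other group. Of all bins, 12076 were called; limma called 0, the prior from all features 3 and the fits with 1 library left out 0 to 1, so calls were lost across the genome and not at these 4 bins alone. The replicate numbers were not shown to pair the samples: deviations of same-numbered libraries correlated at -0.0674 over all genes and -0.198 over the Hox genes, with only 2 pairs. With the replicate number as a block, 0 Hox genes, 0 Hox starts and 1 bin were called, with 6574 of all bins.

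The mean difference over Hox genes was 0.0962 points with 3 reads per CpG and 0.246 (without control 2) to 1.16 (without control 1) with 1 library left out. The flank-to-cluster step was smaller in Ogt iKO in all 13 alternatives. The difference inside minus that in the flanks, 6.54 points, lay between 4.64 and 8.45. Leaving out the stretch between Hoxb13 and Hoxb9 and taking bins in Hox genes alone were not planned. By CpG number inside the clusters, 10 to 19 CpGs gave -0.505 points with no minimum and -3.95 with 3 reads, and 3 reads gave 1.51 at 20 to 39 and 1.06 at 40 or more CpGs; with 1 library left out the ranges from 1 to 9 up to 40 or more CpGs were -5.43 to -1.38, -1.45 to -0.572, 0.694 to 1.47 and -0.169 to 0.973. Up to 10 kb from the border the difference of -0.395 points became -2.12 with bins under 20 CpGs alone. Over all bins it lay between -1.42 and 0.634 with 1 library left out. From 10 to 20 kb the difference of -2.67 points became -6.09 with bins under 20 CpGs and -5.91 as an unweighted mean of bins. Over all bins it lay there between -4.15 and -1.18 with 1 library left out. The cause was not tested. The distance to the first bin at 50% (0.4375 kb farther in Ogt iKO) became 1.375 with 3 reads, -0.1875 at 40% and -0.25 at 60%. At 50% it lay between 0.0625 and 0.8125 with 1 library left out. For 3 bins (-2.6875 kb) it became -1.1875 with no minimum, 1.4375 with 3 reads, -1.3125 at 40%, 6.125 at 60%, and -3.125 to -2.25 with 1 library left out.

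Of the named genes, none of which was called, the sign turned in Hoxb1 (-1.78 with 3 reads, -0.963 with no margin), Hoxa7 (0.378 with 3 reads), Hoxa4 (-2.35 with 3 reads) and Hoxa2 (1.69 with 5 kb), and with 1 library left out in Hoxd4 (-4.88 to 2.19), Hoxc4 (-0.126 to 3.14), Hoxb1 (-2.70 to 2.92) and Hoxb7 (-0.0395 to 8.61). Several single promoters rest on under 20 reads per library.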
